A study of Sus scrofa with 9 samples.

Results

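The probes raised only at 24 h are the 200 rows, of 43566 in the deposited series-wide table, that scored highest for a level at 24 h above both earlier times in pig whole blood. The score was the lowest log2 value of the 3 arrays at 24 h minus the highest of the 6 arrays taken before feeding and at 6 h. Rows needed a mean linear intensity of at least 50 at 24 h, which 14189 rows had; these are called rows over the floor below. Among them 263 had a score above 0, and the limit of 200 kept the highest. The members were selected on these measured values, the 24 h arrays against the other 6, so their height at 24 h is a description with no test and supports nothing.

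Peripheral whole blood of male Clawn miniature pigs kept specific-pathogen-free (a small breed used in laboratories) was profiled around 1 oral dose of azide of 300 µg/kg. The series was made to evaluate toxicity in a model animal. The 3 groups are blood drawn before feeding (0 h), at 6 h and at 24 h, each with 3 one-colour Agilent arrays, 9 in all. All the samples after feeding carry the dose, and there are no undosed pigs at 6 h or 24 h, which means that time of day, feeding and handling cannot be told apart from the dose. Age is 7 months in some label fields but 7 weeks in the descriptions. The labels do not tie equal replicate numbers to 1 animal, so p-values measure only the spread between these samples, which may be technical. Slide and scan changed with the group, and these cannot be told apart.

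The share of spots well above background was 39.9% to 46.6% on arrays before feeding, 42.4% to 47.8% for 6 h and 45.5% to 56.6% for 24 h, with the highest share on 24 h replicate 3. The log2 75th percentile of the unscaled signal was between 5.79 and 6.55 before feeding, between 5.91 and 6.56 at 6 h and between 6.77 and 7.69 at 24 h, again highest on 24 h replicate 3. With 3 arrays a group, the number of arrays limits the precision of every value. Defining blood cell transcripts were present. CD3E, a signalling chain of the T cell receptor complex, had 733 to 943 units before feeding. It had 319 to 649 units at 6 h and 590 to 881 units at 24 h. Of 4 transcripts of other tissues, KRT18 of epithelium, GFAP of astrocytes and ALB of liver had at most 17.7 units on any array. CKM of muscle had 11.2, 4.0 and 8.0 units before feeding, 31.7, 11.7 and 46.9 units at 6 h, and 56.1, 3.6 and 11.9 units at 24 h, with 24 h replicate 1 highest.

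RNA of whole blood comes from circulating white cells, platelets and young red cells, so a probe's level reads both how many cells of a type the sample held and how much RNA each cell had; the data cannot separate these. Azide inhibits cytochrome c oxidase, which hands electrons to oxygen at the end of mitochondrial respiration. White cells enter and leave the blood over hours after stress or feeding, and their transcripts for adhesion, signalling and growth control move with that traffic and with activation.

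The probes are 60-base oligos, and some members share a feature that the rule did not use: a run of alternating G and T. The letters GTGTGTGTGTGT stood in 10 of the 200 member probes (5.0%), in 52 of the 14189 rows over the floor (0.37%) and in 56 of all 43566 rows (0.13%). The reverse complement, ACACACACACAC, stood in 0 members, in 26 rows over the floor (0.18%) and in 40 of all rows (0.09%). No row over the floor held both, and overlapping matches within 1 run counted once. The repeat was picked after the member sequences had been seen, so its share carries no test. The repeat does not mark a member by itself, since 42 other rows over the floor also hold it. The 10 member probes, read from the deposited scanner files and written 5′ to 3′ with the longest repeat in capitals, are shown because they share this stretch.
CO938958: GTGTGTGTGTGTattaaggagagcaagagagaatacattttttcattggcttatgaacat
TC293265: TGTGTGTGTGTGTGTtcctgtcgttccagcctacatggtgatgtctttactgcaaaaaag
TC297895: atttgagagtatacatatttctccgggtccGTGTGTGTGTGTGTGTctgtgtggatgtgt
BQ601482: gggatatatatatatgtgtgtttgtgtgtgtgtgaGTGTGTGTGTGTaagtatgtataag
AJ960382: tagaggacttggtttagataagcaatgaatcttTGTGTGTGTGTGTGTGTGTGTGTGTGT
TC293228: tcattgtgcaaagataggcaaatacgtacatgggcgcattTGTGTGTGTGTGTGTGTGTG
AJ952034: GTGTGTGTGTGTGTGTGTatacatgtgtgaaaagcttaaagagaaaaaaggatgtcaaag
TC282161: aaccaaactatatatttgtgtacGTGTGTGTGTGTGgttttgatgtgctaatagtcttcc
TC290643: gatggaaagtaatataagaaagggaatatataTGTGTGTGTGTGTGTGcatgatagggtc
TC266013: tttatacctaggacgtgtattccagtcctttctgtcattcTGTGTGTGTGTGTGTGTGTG

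Rows with the opposite strand of the repeat are shown for comparison, although none is a member. These 3 have the highest mean value at 24 h among the 26 rows over the floor, with the repeat in capitals.
AK235427: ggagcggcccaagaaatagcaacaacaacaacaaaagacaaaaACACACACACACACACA
AK231886: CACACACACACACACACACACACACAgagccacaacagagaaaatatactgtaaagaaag
DN102066: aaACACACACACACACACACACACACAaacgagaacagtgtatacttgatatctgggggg

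The member AJ960382, a transcript tag with the longest repeat of the 10, had 3260, 3755 and 4422 units of linear intensity before feeding, 4025, 4570 and 4287 units at 6 h, and 4874, 6069 and 6005 units at 24 h. Its 24 h arrays lay above all others, and replicate 1 before feeding was the lowest array. AK231886, with the opposite strand of the repeat, had 6958, 7367 and 4418 units before feeding, 3490, 3597 and 2775 units at 6 h, and 3871, 3052 and 2221 units at 24 h. Its highest arrays were the 3 before feeding and its lowest was 24 h replicate 3. AK235427, of the same strand, did not have that order: its highest array was 6 h replicate 2, and 24 h replicate 1 lay above replicates 2 and 3 before feeding. On the deposited values the 42 non-member rows with the repeat differed by a median of 0.37 (log2) between 24 h and before feeding, and 38 of them were higher at 24 h; 6 of the 42 had a score above 0. The 26 rows with the reverse complement differed by a median of −1.10, and 0 of them were higher at 24 h. Centred on each probe's own mean, the median of those 26 rows was 0.47, 1.16 and 0.11 on the arrays before feeding, −0.06, −0.05 and −0.03 at 6 h, and −0.17, −0.34 and −1.07 at 24 h. For the 10 members with the repeat it was −0.31, −0.18 and 0.01 before feeding, −0.11, −0.13 and −0.07 at 6 h, and 0.15, 0.39 and 0.25 at 24 h. For the 42 other rows with the repeat it was −0.32, −0.17 and −0.02 before feeding, −0.05, −0.02 and −0.02 at 6 h, and 0.03, 0.36 and 0.28 at 24 h. On the deposited values the strands ran in opposite order over the means of the groups, although replicate 3 before feeding of the 10 members lay slightly above 0 and so on the same side as 24 h.

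Of the 52 rows over the floor with the repeat, 16 had a score above 0 (30.8%), against 1.75% of rows without it. With the scanner signal scaled to each array's 75th percentile in place of the deposited values, 1 of those 52 rows had a score above 0. That row was 1 of the 10 members, so the other members with the repeat lost the position. The median difference of the 52 rows between 24 h and 6 h was then −0.12, against 0.26 on the deposited values. The centred medians of the 52 rows were then −0.36, −0.13 and −0.02 before feeding, −0.03, 0.06 and 0.33 at 6 h, and −0.19, 0.26 and 0.06 at 24 h, with 6 h replicate 3 highest and 24 h replicate 1 on the side of the arrays before feeding. The 26 rows with the reverse complement kept their direction under that scaling, with medians of −1.21 for 24 h minus before feeding and −0.68 for 24 h minus 6 h. What sets the level of these repeat probes on each array was not tested.

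The scores of the members were small. The highest was 0.57, which means that the lowest 24 h array stood 1.48-fold above the highest of the other 6. The median score was 0.12, or 1.09-fold, and the lowest was 0.04, or 1.03-fold; 87 of the 200 reached 1.1-fold and 19 reached 1.25-fold. Just inside the limit, the lowest 24 h value and the highest other value were 2614.1 and 2544.6 units for AK236292, 729.4 and 710.6 units for TC295572, and 79.2 and 77.2 units for DB817134. Just outside it, they were 459.9 and 448.7 units for TC263280, 80.5 and 78.6 units for TC291942, and 3858.1 and 3765.3 units for PCBP2, an RNA-binding protein. The limit separates no gap in the values.

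The same rule turned to the other times, with the floor of 50 units set on each time's own mean, found more rows: 1084 of 14085 rows (7.70%) stood highest on all 3 arrays before feeding and 843 of 14195 (5.94%) on those of 6 h, beside the 263 of 14189 (1.85%) of 24 h. On the deposited values the median difference over the 200 members was 0.73 (log2) for 24 h minus before feeding and 0.75 for 24 h minus 6 h, against 0.03 and 0.06 over all rows over the floor. For 6 h minus before feeding it was 0.01, with a range from −0.84 for EW134290 to 1.43 for AK239674, and 103 of the 200 were above 0. Mean levels at 24 h spanned 50.5 units for DN129208 to 39885 units for TC298250, with a median of 417.2 units, against 276.9 units over the rows over the floor.

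Arrays of 1 group were not alike in these probes. Centred on each probe's own mean, the members' median was −0.08, −0.50 and −0.01 before feeding, −0.35, −0.07 and −0.23 at 6 h, and 0.42, 0.34 and 0.67 at 24 h. The medians of the rows over the floor lay between −0.13 and 0.05 on the 9 arrays. Of the 3 arrays at 24 h, replicate 3 was the highest for 138 members, replicate 1 for 35 and replicate 2 for 27, and replicate 3 was the highest in 47.8% of the rows over the floor. Replicate 2 was the lowest array before feeding for 145 members, against 42.1% of the rows over the floor, and 116 members had both features. The share of rows over the floor with both was not counted, so nothing is read from that number. The array that came closest to the 24 h values was one taken before feeding for 125 members and one taken at 6 h for 75. On 24 h replicate 3, 35 members stood at least 2-fold above the highest of the other 6 arrays, on replicate 2 only 1 (of 200) and on replicate 1 none (0). Rows outside the set were not counted in this way.

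Membership rested on these arrays. When the rule was applied again without 24 h replicate 3, which left 1061 rows with a score above 0 to rank, only 10 of the 200 were among the 200 highest. Without 24 h replicate 2 the number was 99, without replicate 1 it was 124, and leaving out 1 of the other 6 arrays gave 98 (without replicate 1 before feeding) to 190 (without replicate 2 before feeding). The scaling between arrays counted too. On the scanner signal scaled to the 75th percentile, every 24 h array lay above the other 6 for 122 members, against 253 of 19783 tested probes (1.28%). Scaling to the median left 89 members in that position, quantile normalization 196 and centring on spike-in controls 200. In the same order, the rule found 124, 244 and 3831 rows with a score above 0 to rank. Across all 6 scalings tried 62 members held that position, and spike-in centring removed none of the 200. Quantile normalization stayed close to the deposited values, with a member median of 0.72 against 0.73 for 24 h minus before feeding. These scalings kept nearly every member, so a place held under few of the 6 says little. Floors of 20 and 100 units in place of 50 took 143 and 170 of the members again.

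Tests were run with limma over 19783 probes, with Benjamini-Hochberg adjustment over all of them, on log2 signal minus each array's 75th percentile; all 200 members were tested, and 187 were well above background on all 9 arrays. At an adjusted p under 0.05, 0 of 200 members passed for 24 h against before feeding and 0 passed for 24 h against 6 h, and 0.0% of all probes passed in each. At an unadjusted p under 0.05, 84 members and 13.9% of all probes differed from before feeding, and 75 members and 21.6% of all probes differed from 6 h. The 84 became 24 without 24 h replicate 3 (12.9% of all probes) and 28 without replicate 2 before feeding (8.61% of all probes). The 75 became 43 without 6 h replicate 1 (16.8% of all probes) and also 43 without 24 h replicate 3 (16.5% of all probes). With centring on spike-in controls 193 members passed the adjusted threshold for 24 h against before feeding, as did 29.4% of all probes, whose median difference was then 0.99. Those contrasts chose the members, so nothing is read from the counts. On this scale the median difference of the members was 0.64 for 24 h minus before feeding and 0.61 for 24 h minus 6 h, and every 24 h array lay above every array before feeding for 150 members (7.5% of all probes).

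For 6 h against before feeding, which the rule did not set against each other although it bounded both from above, 0 of 200 members passed by limma (0.0253% of all probes, 5 probes), and 6 had an unadjusted p under 0.05 (25.5% of all probes). The number of members was 24 without 6 h replicate 2 (33.7% of all probes) and 11 without replicate 2 before feeding (26.8% of all probes). It was 1 without 6 h replicate 3 (14.2% of all probes). The smallest adjusted p among the members was 0.116, for AK233467, a clone from liver. Every 6 h array lay above every array before feeding for 8 members (16.0% of all probes) and below for 5 (10.6%). The member TC288927, a contig matched in part to the human 80K-L protein (MARCKS, a substrate of protein kinase C at the membrane), had 324, 202 and 220 units before feeding, 365, 553 and 506 units at 6 h, and 595, 804 and 1304 units at 24 h. Its 3 times did not overlap on these deposited values. On the signal scaled to the 75th percentile, 6 h replicates 2 and 3 (2.55 and 2.51) lay above 24 h replicate 1 (2.41). On that scale its log2 difference for 6 h minus before feeding was 1.01 ± 0.37 (SE, n = 3 per group), with a limma adjusted p of 0.135. Without 6 h replicate 2, 4 members passed at 6 h against before feeding, all lower at 6 h, and 21 passed at 24 h against 6 h; over all probes 2396 and 1767 then passed.

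Few members could be named. A gene symbol was found for 28 of the 200 (14.0%), which stand for 25 genes, against 11.4% of the rows over the floor. Of the members, 71 target a single expressed sequence tag, 57 a GenBank mRNA or full-length clone, 38 an assembled contig with a protein match, 20 a contig with no match and 14 a RefSeq mRNA. Their probes had a median of 36.7% G and C, against 38.3% over the rows over the floor. In all the 200 probes stand for 191 distinct targets, because 8 genes or clusters have several member probes, 17 in total. The 28 probes with a symbol showed the same arrays at the extremes: 24 h replicate 3 was the highest at 24 h for 22 of them and replicate 2 was the lowest before feeding for 21.

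The highest score belonged to BP436368, a tag from a lung library, with 252, 208 and 236 units before feeding, 216, 313 and 274 units at 6 h, and 464, 468 and 518 units at 24 h. The arrays at 24 h were close to each other, as were those before feeding. Those at 6 h spread more, from 216 to 313 units. The 24 h arrays lay above the rest, as the rule requires. AK235026, an ovary clone, followed with 2087, 1596 and 1982 units before feeding, 861, 1858 and 890 units at 6 h, and 3583, 2914 and 4927 units at 24 h. At 6 h its replicate 2 lay near the level before feeding and the other arrays lay below it. TC271266, matched over its length to RAB14, a small GTPase of endosome traffic, had 44.2, 25.4 and 38.2 units before feeding, 37.6, 44.1 and 52.3 units at 6 h, and 76.2, 68.8 and 129 units at 24 h. Its earlier groups overlapped each other. Among the 10 highest scores were also AJ953064, TC294410, a PECAM1 probe, DN102223, AY609462 and AK233671, and all 10 held their position under all 6 scalings.

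Some named members are adhesion and surface proteins. PECAM1 (CD31), an adhesion molecule of platelets, white cells and endothelium through which leukocytes cross the vessel wall, is the one gene with 3 member probes. The probe of highest score had 84.2, 144 and 107 units before feeding, 141, 148 and 144 units at 6 h, and 205, 196 and 223 units at 24 h. A second had 867, 1532 and 1347 units before feeding, 1408, 1551 and 1055 units at 6 h, and 1794, 2086 and 1808 units at 24 h. The third, whose target overlaps that of the second, followed the same order of arrays. ITGB1, the integrin beta 1 chain that binds extracellular matrix, had 1970, 1587 and 2352 units before feeding, 988, 1847 and 996 units at 6 h, and 3752, 2842 and 6105 units at 24 h, with 24 h replicate 3 far above the other arrays. ITM2B, a membrane protein that yields secreted peptides, had 6160, 3003 and 5592 units before feeding, 5669, 7071 and 6816 units at 6 h, and 9622, 8524 and 17903 units at 24 h. PECAM1's first probe and ITGB1 kept all 24 h arrays on top under all 6 scalings, ITM2B under 2 of them.

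GPNMB, a glycoprotein of macrophages, had 139, 181 and 221 units at 24 h, against 81.3, 71.0 and 117 units before feeding. GGTA1, which makes the alpha-gal sugar of pig cell surfaces, had 942, 919 and 1224 units at 24 h, against 883, 462 and 781 units before feeding. For both the 24 h arrays lay above the others, by little in GGTA1.

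Among signalling genes, RGS1, which switches off G protein signalling from chemokine receptors in lymphocytes, had 56.2, 23.1 and 59.1 units before feeding, 32.5, 39.6 and 32.7 units at 6 h, and 71.0, 75.4 and 75.9 units at 24 h. The probe labelled PKC, described as protein kinase C beta 1 of lymphocyte signalling, had 381, 447 and 450 units at 24 h, against 252, 208 and 332 units before feeding. FYN, a Src family kinase downstream of the T cell receptor, had 404, 436 and 377 units at 24 h, against 233, 356 and 360 units before feeding. The T cell marker list had 9 tested genes and no member among these 200. Levels of marker lists are medians over genes of log2 signal scaled to the 75th percentile, each gene centred on its own mean. Those of the T cell list lay between 0.01 and 0.55 before feeding, between −0.84 and −0.01 at 6 h and between −0.01 and 0.19 at 24 h. Likewise none (0) of the neutrophil, monocyte, platelet or B cell marker genes was a member, and only 1 B cell gene was tested. The lists are short and the members are 200 of 14189 rows over the floor, so nothing is read from this absence. The 5 tested neutrophil markers had levels between −0.69 and −0.15 before feeding, between 0.22 and 1.75 at 6 h and between −0.57 and −0.03 at 24 h. The 9 tested monocyte markers had levels between −0.88 and −0.63 before feeding, between 0.34 and 2.31 at 6 h and between −0.70 and 0.31 at 24 h. Replicate 3 was their highest array at 24 h and at 6 h, and replicate 1 before feeding was their lowest. Of these 9, 8 were higher at 24 h than before feeding (median 0.57) and 1 was higher than at 6 h (median −1.49). The 6 tested platelet markers lay between −1.54 and 1.00 before feeding, between −0.16 and 0.82 at 6 h and between −0.74 and 0.86 at 24 h, so their groups overlapped. The part of cell composition in these probes was not tested.

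Some named members act in growth and division. MYC, a transcription factor for growth, had 530, 236 and 562 units before feeding, 309, 476 and 188 units at 6 h, and 768, 661 and 645 units at 24 h. The earlier arrays spread over a wider range than those at 24 h. CDKN1B (p27), an inhibitor of cyclin-dependent kinases, had 1276, 505 and 1149 units before feeding, 690, 839 and 748 units at 6 h, and 1699, 1317 and 2388 units at 24 h. BTG1, an antiproliferative gene of quiescent lymphocytes, had 4651, 2033 and 4270 units before feeding, 2221, 2858 and 1539 units at 6 h, and 6037, 4795 and 6852 units at 24 h. In both, replicate 1 before feeding came within 0.05 (log2) of the lowest 24 h array. TC256964, a contig matched in part to cyclin G2, which brakes the cell cycle, had 468, 113 and 269 units before feeding, 263, 445 and 429 units at 6 h, and 552, 502 and 1269 units at 24 h. MYC stands in the list of immediate early and glucocorticoid response genes, of which 8 were tested: 5 were higher at 24 h than before feeding and 3 higher than at 6 h, with a median of −0.76 against 6 h. The dividing cell markers had 6 tested genes and 0 of them were higher at 24 h than before feeding (median −0.42), while 4 of the 6 were higher than at 6 h (median 0.51).

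Several members are mitochondrial. SDHD, the membrane anchor of succinate dehydrogenase, which feeds electrons to the respiratory chain upstream of the enzyme that azide blocks, has 2 member probes. The first had 1500, 665 and 1244 units before feeding, 1131, 1602 and 1438 units at 6 h, and 1847, 1757 and 2928 units at 24 h. The second had 3347, 1483 and 2833 units before feeding, 2122, 3318 and 2614 units at 6 h, and 3730, 3577 and 6381 units at 24 h. SDHB, the iron-sulphur subunit of the same complex, had 5785, 5442 and 7835 units at 24 h, against 4616, 3618 and 5239 units before feeding. PRELID3B, which carries phospholipid between mitochondrial membranes, had 386, 158 and 314 units before feeding, 145, 261 and 221 units at 6 h, and 541, 424 and 911 units at 24 h. The units above are deposited values. On the signal scaled to the 75th percentile, the SDHD probes differed by 0.80 and 0.68 (log2) for 24 h minus before feeding. SDHB then differed by 0.31 and PRELID3B by 1.03. The cytochrome c oxidase list had 4 tested genes and no member among the 200. On the same scale its median was −0.68 for 24 h minus before feeding, with 0 of 4 higher at 24 h than before feeding. Against 6 h, 3 of the 4 were higher at 24 h, with a median of 0.27.

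GPX1, a selenium enzyme that reduces peroxides, was the brightest member with a symbol, at 22728, 24036 and 30422 units before feeding, 34392, 32092 and 23144 units at 6 h, and 38177, 35502 and 40099 units at 24 h. On the signal scaled to the 75th percentile its log2 difference was 0.00 ± 0.26 for 24 h minus before feeding and −0.31 ± 0.26 for 24 h minus 6 h (SE, n = 3 per group; limma adjusted p = 0.997 and 0.519). Its place in the set thus depends on the scaling: it held under 1 of 6, as did SDHB. The 2 SDHD probes held under 3 and 2 of the scalings. The oxidative stress list with GPX1 had 12 tested genes. On the signal scaled to the 75th percentile, 7 of them were higher at 24 h than before feeding.

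Genes of traffic and the cytoskeleton included ARF4, a GTPase of Golgi transport, with 8609, 5524 and 7350 units at 24 h, against 5088, 3118 and 4915 units before feeding. YIPF5, a Golgi membrane protein, had 1116, 1009 and 1449 units at 24 h, against 955, 595 and 935 units before feeding. KIF5B, the heavy chain of the motor kinesin, and MAPRE1, which tracks microtubule ends, had scores of 0.08 and 0.09. Among genes of RNA processing, SRSF2 and SRSF4, splicing factors rich in serine and arginine, had scores of 0.08 and 0.05 and EIF4A3, a helicase of the exon junction complex, had 0.05. SRSF2 had 1052, 447 and 902 units before feeding, 501, 691 and 494 units at 6 h, and 1247, 1111 and 1567 units at 24 h. PNN, which the files describe as a neutrophil protein and which the symbol names as pinin of the spliceosome, had 1067, 932 and 1221 units at 24 h, against 816, 386 and 793 units before feeding. DNMT1, which copies DNA methylation onto new strands, had 110, 121 and 121 units at 24 h, against 42.7, 67.7 and 107 units before feeding.

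Other probes of the members' genes gave a further reading on the same arrays. Outside the set 85 such probes were found, 68 of them over the floor. Of those 68, 45 (66.2%) had a mean at 24 h above both other times, against 33.0% of all rows over the floor, and their median difference was 0.38 for 24 h minus before feeding. Of the 68, 14 had a lower mean at 24 h than before feeding, and 8 of these were also lower than at 6 h. Only 4 of the 68 (5.88%) had a score above 0, against 1.85% of all rows over the floor. Without the 3 probes that share at least 20 bases with a member, 42 of 65 (64.6%) had the highest mean at 24 h.

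Some of these readings ran against the member. The probes of PECAM1 and ITGB1 are printed as examples because different stretches of the same gene's transcripts gave different time courses; capitals mark the stretch of 55 bases that 2 member probes share. Positions are the first base in the design's target sequence, as the scanner files give it; the PECAM1 probes at 3209 and 3214 are placed in a full-length clone and the others shown in the RefSeq mRNA.
PECAM1 member at 3214: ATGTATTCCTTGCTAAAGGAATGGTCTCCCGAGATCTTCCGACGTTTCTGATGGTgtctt
PECAM1 member at 3209: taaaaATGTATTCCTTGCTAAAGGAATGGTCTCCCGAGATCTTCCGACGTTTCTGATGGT
PECAM1 member at 2486: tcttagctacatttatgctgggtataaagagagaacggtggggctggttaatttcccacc
PECAM1 other probe at 556: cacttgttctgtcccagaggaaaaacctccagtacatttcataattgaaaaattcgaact
ITGB1 member at 3651: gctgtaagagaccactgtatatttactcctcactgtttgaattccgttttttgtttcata
ITGB1 other probe at 2459: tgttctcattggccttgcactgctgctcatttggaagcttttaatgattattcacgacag

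The other PECAM1 probe had 200, 602 and 294 units before feeding, 503, 270 and 403 units at 6 h, and 239, 302 and 322 units at 24 h. Its groups overlapped and its highest array was replicate 2 before feeding. A further probe, for a contig that the files describe as a partial match to PECAM1, had 139, 211 and 209 units before feeding, 257, 274 and 244 units at 6 h, and 270, 321 and 372 units at 24 h, and missed a score above 0 by 0.02 (score −0.02). The other ITGB1 probe had 3027, 7177 and 4897 units before feeding, 4198, 3050 and 3070 units at 6 h, and 3909, 3707 and 3941 units at 24 h, again highest on replicate 2 before feeding.

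The 3 other probes over the floor that lay lowest at 24 h relative to before feeding belong to AK236292, TC271266 and DNMT1. That of AK236292, an ovary clone, had 220, 470 and 250 units before feeding, 285, 191 and 334 units at 6 h, and 123, 144 and 122 units at 24 h (−1.19 on the log2 scale for 24 h minus before feeding). That of TC271266, in the RefSeq mRNA of RAB14, had 216, 414 and 208 units before feeding, 276, 245 and 345 units at 6 h, and 101, 159 and 144 units at 24 h (−0.998). In these the 24 h arrays lay below the other 6, whereas in the members they lay above. A further RAB14 probe had its highest mean at 24 h but a score of −0.49. A further AK236292 probe over the floor starts at 1830, near the one above at 1761. It also had its highest mean at 24 h (0.98 for 24 h minus before feeding) but a score of −0.46.

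DNMT1 has 3 other probes on the same transcript. The probe at 309 had 81.2, 217 and 168 units before feeding, 142, 138 and 99.6 units at 6 h, and 68.0, 96.1 and 65.1 units at 24 h (−0.93), and the one at 783, under the floor, was also lower at 24 h (−1.26). The probe at 5034, beyond the member at 4462, had its highest mean at 24 h, with 1148, 1226 and 1247 units at 24 h, against 734, 568 and 1241 units before feeding.

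The 3 other probes of ITM2B, which overlap one another, all lay lower on average at 24 h than at 6 h, by −0.13 to −0.22 (log2). All 3 were higher than before feeding, by 0.76 to 0.80 at 24 h and by 0.93 to 0.97 at 6 h. The second PRELID3B probe had 250, 162 and 187 units before feeding, 140, 217 and 240 units at 6 h, and 165, 176 and 259 units at 24 h, with no group apart from the others. In SDHB both probes had their highest mean at 24 h; the other probe had 2642, 2373 and 3247 units at 24 h, against 2061, 1794 and 2427 units before feeding. A second BTG1 probe, which shares bases with the member, had 6526, 5177 and 7541 units at 24 h, against 5063, 2161 and 4592 units before feeding, and its score of 0.03 fell just below the limit.

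Members lay farther along their transcript than the other probe in most of the pairs compared. In 34 pairs of a member and another probe of the same target sequence at least 300 bases apart, both over the floor, the member was the farther one in 23 and the nearer one in 11. The pairs hold 24 member probes, and some targets, such as AY609462 and ITM2B, give several pairs, so the pairs are not independent. Where the member was farther, the other probe had a median difference of 0.21 for 24 h minus before feeding, and where it was nearer 0.33. The 14 RefSeq members started at a median position of 1503, against 960 for RefSeq rows over the floor. Arrays also differed in this respect over all genes: in 140 RefSeq transcripts with such pairs, the farther minus the nearer probe, centred on the 9 arrays, had a median of 0.26, −0.04 and 0.12 before feeding, −0.19, 0.09 and −0.36 at 6 h, and 0.03, 0.02 and 0.00 at 24 h. The median was 0.20 for 24 h minus 6 h, with 97 of 140 above 0, and −0.11 for 24 h minus before feeding, with 57 of 140 above 0. The part of probe position in the members' levels was not tested.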

How the data were processed

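RNA from whole blood kept in PAXgene tubes was amplified and labelled with Cy3, and each sample was hybridised to 1 porcine Agilent array, per the labels' protocols. The scanner files hold background-subtracted spot intensity that is not scaled between arrays, per the file headers, which name Feature Extraction 10.5.1.1; the submitters' processing notes name 9.5.3.1. The deposited series-wide values are linear intensity by their range, with 1 maximum shared by all columns and a median near 11.4 in each; the sources used here do not give their normalization. Taking log2 of these deposited values was done here.

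The rule was applied to log2 of the deposited values. For the tests, each array's 75th percentile of log2 processed signal was subtracted, after control spots and outlier flags were left out; 43596 probes remained, and the 19783 that cleared background on the 3 arrays of some group were tested. One limma fit (3.58.1, under R 4.3.3) took all 9 arrays, with a term for group alone and 6 residual degrees of freedom, Benjamini-Hochberg adjusted with a threshold of 0.05. Alternatives were other scalings, normexp with an offset, other filters and fits, a replicate block and leaving out each array. No member was below background on every array of a group, so no fold is given as a bound.

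The members, gene lists and probes shown were chosen with earlier results of these data known. Named members are the 10 highest scores, those with a symbol, those in a list and the 3 on either side of the limit; contigs are named by the files' description, and the matches are partial unless said. Some of these members are not reported here. Symbols came from the files and given tables for 3209 of 43603 probes. Marker list levels are medians over a list's tested genes of log2 signal centred on each gene's mean. No genome was used, so positions in it were not analysed here. Tables were joined in Python 3.11.15 (pandas 2.3.3, numpy 2.4.6) and in R with the data.table package (version 1.17.8).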

Additional observations from a re-analysis of the deposited data

How the results depend on the processing

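The number of members passing limma's adjusted threshold stayed at 0 in each comparison under 19 of 20 alternatives. The exception for 24 h against before feeding was centring on spike-in controls, with 193 members (5821 of all probes, whose median then moved to 0.99). Leaving out 1 array gave 0 to 0 members for 24 h against before feeding, 0 to 21 for 24 h against 6 h and 0 to 4 for 6 h against before feeding, the higher values without 6 h replicate 2. The median difference of the members was 0.64 for 24 h minus before feeding, 0.61 for 24 h minus 6 h and 0.08 for 6 h minus before feeding. Spike-in centring moved these to 1.64, 1.39 and 0.30, and the 75th percentile over detected probes moved the one for 24 h minus 6 h to 0.83. Leaving out 1 array gave 0.45 to 0.73, 0.48 to 0.69 and −0.09 to 0.17; the last was −0.07 with median scaling, so its sign depends on the scaling.

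All 24 h arrays lay above the other 6 for 200 members on the deposited values, for 122 with the 75th percentile, 89 with median scaling and 126 with normexp. Rows with a score above 0 to rank numbered 263, 146, 124 and 221 in the same order, and 3831 with spike-in centring. The rule took 122, 89 and 121 members again under these settings and 88 with spike-in centring, and 10 to 190 when 1 array was left out. With the replicate number as a block, 0 members passed in each comparison, and 620 of all probes at 6 h against before feeding (5 without it). Of 9 same-numbered pairs, 5 had a correlation of deviations over 0.1, in a range from −0.20 to 0.64. Differently numbered pairs ranged from −0.625 to 0.431. These values do not settle whether the numbers pair the samples. The labels do not tie equal numbers to 1 animal, so the main fit did not pair them.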
